A study of Homo sapiens with 6 samples.

Results

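The genes described here are 9 subunits of, or partners of, Polycomb repressive complex 1 (PRC1): CBX2, CBX6, CBX7, CBX8, PHC1, PHC2, PHC3, SCMH1 and KDM2B. They were chosen by name, as genes of the CBX and PHC families and their partners, among the 18418 genes measured. For 8 of the 9 genes a probe set was annotated, and CBX8 was not analysed here. RNA came from A2780, a human ovarian cancer cell line, infected with lentivirus that delivers short hairpin RNAs, which lower a chosen transcript. The groups were BMI1 shRNA1 and BMI1 shRNA2 (1 array each) against BMI1 Ctrl (1 array), and FAL-1 shRNA1 and FAL-1 shRNA2 (1 array each) against FAL-1 Ctrl (1 array). BMI1 is a core PRC1 subunit and FAL-1 is a long non-coding RNA. All 6 arrays carried lentiviral infection, growth with 10% fetal bovine serum, removal of the virus medium at 24 hours and harvest at 96 hours. The labels describe neither the sequence carried by the control viruses nor separate cultures, so the p-values below measure only the spread between these arrays, which may be technical or may come from unequal hairpins.

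PRC1 attaches ubiquitin to histone H2A and helps to keep developmental genes silent. In its canonical form a RING1 enzyme pairs with BMI1 or its relative PCGF2, and the pair takes up 1 CBX protein and 1 PHC protein. The CBX protein reads the methyl mark that the sister complex PRC2 places on histone H3, and the PHC protein links complexes to each other through a domain that polymerises, the SAM domain. SCMH1 is the human relative of the fly protein Sex comb on midleg and also carries a SAM domain. KDM2B belongs to a variant form of PRC1 without CBX or PHC, which it brings to unmethylated CpG-rich DNA through a zinc finger. KDM2B is also a histone demethylase.

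The KDM2B finger binds CpG-rich DNA, and CpG-rich promoters are common Polycomb sites. Promoters of 3 members, picked by their array values, are therefore printed, as the 250 bases before the annotated start. KDM2B had all 4 knockdown arrays below both controls, as did 8.04% of all genes, and PHC3 had them above, as did 9.02%. SCMH1 had the largest change, a value 1.5-fold or more lower with FAL-1 hairpin 2, as had 7.05% of all genes. The sequences are RefSeq's for GRCh38.p14, on the minus strand of the genome in every case, written 5′ to 3′ in the direction of the gene, and KDM2B is shown at its first and its last annotated start. Capitals mark the cell cycle homology region (CHR) motif, searched as TTTGAA or TTCGAA on both strands.
SCMH1, chr1:41242307-41242556: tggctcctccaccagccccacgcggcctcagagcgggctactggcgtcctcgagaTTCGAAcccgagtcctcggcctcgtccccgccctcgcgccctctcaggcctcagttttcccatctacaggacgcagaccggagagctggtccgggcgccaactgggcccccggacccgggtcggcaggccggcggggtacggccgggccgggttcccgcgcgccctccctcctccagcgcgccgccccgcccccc
PHC3, chr3:170181734-170181983: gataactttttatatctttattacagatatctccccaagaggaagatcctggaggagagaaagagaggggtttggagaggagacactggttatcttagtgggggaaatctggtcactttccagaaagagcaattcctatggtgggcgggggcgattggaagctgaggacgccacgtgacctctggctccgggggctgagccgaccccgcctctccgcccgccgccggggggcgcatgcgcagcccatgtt
KDM2B first start, chr12:121581024-121581273: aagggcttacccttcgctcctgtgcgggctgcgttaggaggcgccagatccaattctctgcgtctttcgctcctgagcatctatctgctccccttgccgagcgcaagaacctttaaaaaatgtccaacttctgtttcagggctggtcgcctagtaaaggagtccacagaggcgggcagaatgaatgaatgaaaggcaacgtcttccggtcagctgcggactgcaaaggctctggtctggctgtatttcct
KDM2B last start, chr12:121467379-121467628: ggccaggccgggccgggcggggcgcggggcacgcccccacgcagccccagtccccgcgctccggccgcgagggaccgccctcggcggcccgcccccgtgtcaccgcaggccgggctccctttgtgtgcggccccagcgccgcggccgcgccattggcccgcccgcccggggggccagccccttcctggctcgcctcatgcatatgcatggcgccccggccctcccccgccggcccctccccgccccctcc
RefSeq's table held 12 such windows for 7 of the 9 members, because PHC1 and PHC2 have 2 starts each and KDM2B has 4. The member windows held 10 to 45 CpG dinucleotides, and 10 of the 12 held more than 11, the median over all 35116 promoter windows of this length. The SCMH1 window above held 31, the PHC3 window 13, and the KDM2B windows 13 at the first start and 34 at the last. A CHR motif was in 2 of the 12 windows, 1 for SCMH1 and 1 for PHC1, beside 14.3% of all windows. None of the 12 held an E2F motif, searched as TTTGGCGC, TTTCGCGC, TTTGCCGC or TTTCCCGC on both strands and found in 2.79% of all windows. The GC box GGGCGG was in 10 of the 12 windows and in 42.6% of all. No CHR match shared bases with a GC box in these windows, and a match is a description of letters only.

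The values are log2 probe set intensities, on which a difference of 1 is a doubling, and changes are taken only within a probe set. A level set beside the median gene or another probe set is a rough placement only. The median over probe sets lay between 6.94 and 7.09 on each array, and the 2 controls correlated at 0.987 across probe sets. Each control was closer to hairpin 1 of its own target than to the other control, at 0.992 for BMI1 and 0.995 for FAL-1. For hairpin 2 and its control the correlation was 0.990 for BMI1 and 0.985 for FAL-1. The FAL-1 hairpin 2 value was below that between the controls. Comparisons with the other target's control also cross the 2 sets of arrays, BMI1 and FAL-1, which the labels tell apart by target. FAL-1 hairpin 2 stood apart from the rest. With it 11.2% of genes differed from control by 1.5-fold or more, beside 2.51% with FAL-1 hairpin 1, 5.01% with BMI1 hairpin 1 and 5.82% with BMI1 hairpin 2. Among markers of the cell type, KRT8, KRT18, VIM and CDH2 lay above the median gene on all 6 arrays, whereas EPCAM, CDH1, KRT19, PAX8, WT1, MUC16 and FN1 did not. None of the 6 blood and endothelial markers did, but all 3 fibroblast markers (COL1A1, DCN and LUM) did. The epithelial and ovarian markers thus bear out the labelled cell type only in part. Array intensities cannot tell fewer cells of a type from less RNA per cell.

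The probe set that reads BMI1, which is shared with a readthrough transcript, was checked first. It stood at 8.73 with BMI1 hairpin 1 and 9.99 with BMI1 hairpin 2, against 10.64 in the BMI1 control, so that 26.8% and 64.0% of the control level was left. With the FAL-1 hairpins it stood at 10.84 and 10.51, against 10.84 in the FAL-1 control. BMI1 thus read lower with BMI1 hairpin 1 than with hairpin 2. FAL-1 itself was not analysed here, so its lowering was not checked.

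No member passed limma's test in any comparison. Across all 18418 genes, 0% were called at an adjusted p of 0.05 with BMI1 knockdown, and 0% with FAL-1 knockdown, and none of the 8 measured members was among the 2.59% and 3.06% of genes with an unadjusted p under 0.05. The fit rests on 2 residual degrees of freedom, since each control is 1 array. BMI1 itself, the targeted transcript, did not pass with BMI1 knockdown either. Its mean change was -1.27, with a limma interval of -2.75 to 0.20 (unadjusted p = 0.076, adjusted p = 0.9998). A member that did not pass is therefore not shown to be unchanged. Of the members' 32 single hairpin changes (8 genes by 4 hairpins), 29 were within 0.5 on the log2 scale, beside 91.3% of such changes over all genes, and 1 of 32 reached 1.5-fold, beside 6.14%. These shares are near those of all genes. The accounts below therefore give values and their spread, and the word lower or higher names the position of an array, not a change that passed a test.

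**Figure D1:**
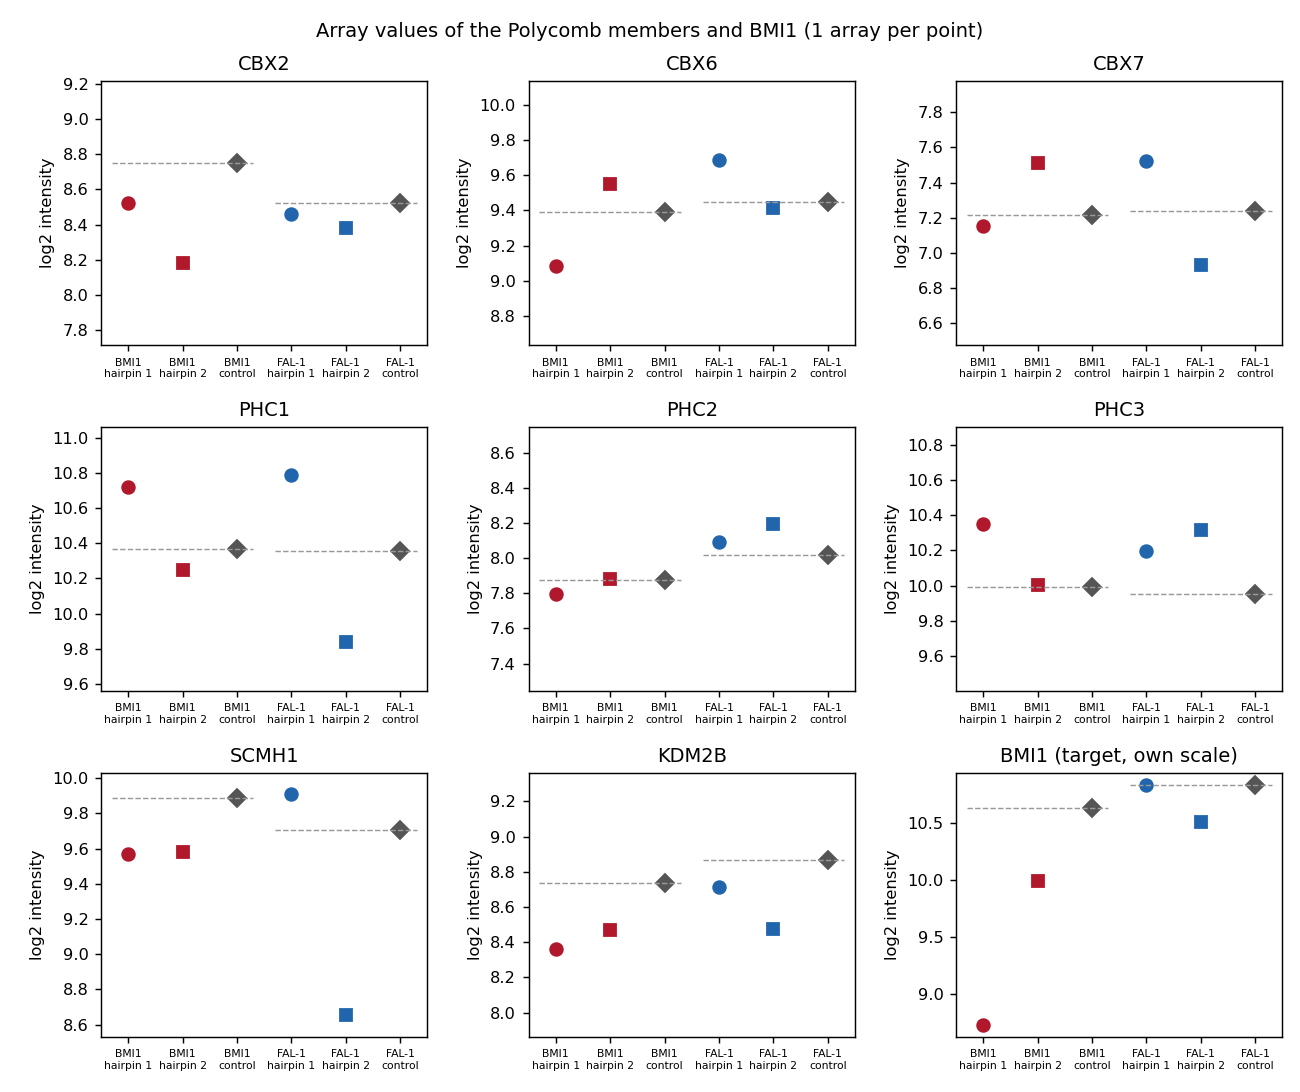
Log2 intensity (y axis) of each of the 8 measured members and of BMI1 on the 6 arrays (x axis), 1 point per array. Red points are BMI1 hairpins, blue points FAL-1 hairpins, grey diamonds controls, and dashed lines mark each control's level. Member panels span the same number of log2 units and the BMI1 panel has its own scale. SCMH1 with FAL-1 hairpin 2 is the member value farthest from its control, at 8.65 against 9.71.

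Of the CBX readers, CBX2 on chromosome 17 was below its control with every hairpin. CBX2, which can also compact nucleosomes, had values of 8.53 and 8.18 with the BMI1 hairpins, against 8.75 in the BMI1 control. With the FAL-1 hairpins it had 8.46 and 8.38, against 8.52 in the FAL-1 control. The BMI1 control was the highest of the 6 arrays for CBX2, and it exceeded the FAL-1 control by 0.226, more than either FAL-1 hairpin moved and about as much as BMI1 hairpin 1 did. The mean change was -0.40 ± 0.24 (SD, n = 2 hairpins) with BMI1 knockdown, with a limma 95% interval of -0.91 to 0.12 (adjusted p = 0.9998). With FAL-1 knockdown it was -0.10 ± 0.06, with an interval of -0.61 to 0.41 (limma adjusted p = 0.999). The larger drop belonged to BMI1 hairpin 2, which left more BMI1, at 67.5% of control for CBX2 beside 85.6% with BMI1 hairpin 1. Set against the FAL-1 control, BMI1 hairpin 1 no longer differed in CBX2 by more than 0.01. With the other target's control the mean changes of CBX2 were -0.17 with BMI1 knockdown and -0.33 with FAL-1 knockdown.

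CBX6 and CBX7 flank the APOBEC3 genes on chromosome 22, since the next coding gene after CBX6 is APOBEC3A and the one before CBX7 is APOBEC3H in RefSeq's order. CBX6 stood at 9.08 and 9.55 with the BMI1 hairpins, against 9.39 in the BMI1 control. It stood at 9.69 and 9.42 with the FAL-1 hairpins, against 9.45 in the FAL-1 control. CBX7, known from mouse embryonic stem cells as their main CBX partner of PRC1, stood at 7.15 and 7.51 with the BMI1 hairpins, against 7.22 in the BMI1 control. It stood at 7.52 and 6.93 with the FAL-1 hairpins, against 7.24 in the FAL-1 control. For both genes the controls agreed closely, within 0.060 for CBX6 and 0.024 for CBX7, and the hairpins of each target fell on opposite sides of their control. BMI1 hairpin 2 exceeded BMI1 hairpin 1, by 0.47 for CBX6 and 0.36 for CBX7, while FAL-1 hairpin 2 lay below FAL-1 hairpin 1 by 0.270 and 0.587. This order of the hairpins held for CBX6, CBX7, SCMH1 and KDM2B, 4 of the 8 members, and for 19.1% of all genes. The mean changes were -0.07 ± 0.33 and 0.10 ± 0.19 for CBX6 with BMI1 and FAL-1 knockdown, and 0.11 ± 0.25 and -0.01 ± 0.42 for CBX7 (SD, n = 2 hairpins). Their limma intervals reached from -0.76 to 0.61 for CBX6 and from -0.72 to 0.95 for CBX7 with BMI1 knockdown, so changes of 1.5-fold in either direction remain within them. CBX7 was the one measured member whose mean lay below that of the median gene (7.26 against 7.58).

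**Figure D2:**
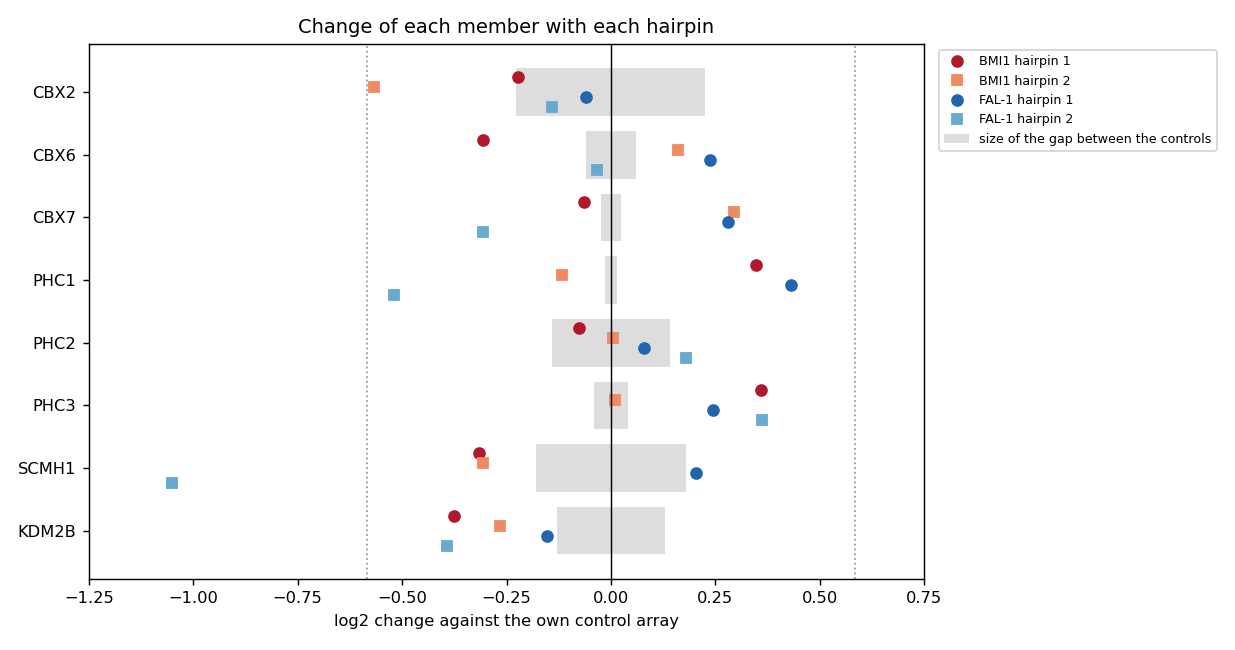
Log2 change of each measured member (rows) against its own control array (x axis), 1 point per hairpin, with red tones for BMI1 and blue tones for FAL-1. Grey bars reach as far to each side of 0 as the 2 controls differ for that gene, and dotted lines mark 1.5-fold. Only the SCMH1 point for FAL-1 hairpin 2, at -1.05, lies beyond a dotted line, and the KDM2B points are all left of 0 and outside the grey bar.

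The PHC proteins did not share a pattern. PHC1, on chromosome 12, stood at 10.72 and 10.25 with the BMI1 hairpins, against 10.37 in the BMI1 control. With the FAL-1 hairpins PHC1 stood at 10.79 and 9.84, against 10.36 in the FAL-1 control. Hairpin 1 of each target was thus above its control and hairpin 2 below it, by 0.35 and -0.12 with BMI1 and by 0.43 and -0.52 with FAL-1, a pattern held by 1 of 8 members and by 3.23% of all genes. The 2 controls differed by 0.014 for PHC1, so either control gives the same picture. The mean changes of 0.11 ± 0.33 with BMI1 knockdown and -0.04 ± 0.67 with FAL-1 knockdown (SD, n = 2 hairpins) therefore average values of opposite sign, and the limma intervals ran from -1.10 to 1.33 and from -1.26 to 1.18. A second probe set annotated to PHC1 differed from the first by 0.014 to 0.055 on the 6 arrays. Both carry the same accessions, so they may read the same transcript or a near-identical copy and are not independent measurements.

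PHC2, on chromosome 1, varied least of the members, with an SD of 0.152 over the 6 arrays, close to the 0.154 of the median gene. It stood at 7.80 and 7.88 with the BMI1 hairpins, against 7.87 in the BMI1 control. It stood at 8.09 and 8.20 with the FAL-1 hairpins, against 8.02 in the FAL-1 control. Both FAL-1 hairpins were above their control, but by 0.08 and 0.18, beside a gap of 0.142 between the controls. With the other target's control the mean changes of PHC2 were -0.18 with BMI1 knockdown and 0.27 with FAL-1 knockdown. Against the own control, the limma intervals of the mean change were -0.40 to 0.33 with BMI1 knockdown and -0.23 to 0.49 with FAL-1 knockdown. They were the narrowest among the members and lay within 1.5-fold (0.585 on the log2 scale). For FAL-1 knockdown this bound holds with the own control only, since an interval of the same width around 0.27 passes it.

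PHC3, on chromosome 3, was above its control with each hairpin. It stood at 10.35 and 10.00 with the BMI1 hairpins, against 9.99 in the BMI1 control. It stood at 10.20 and 10.31 with the FAL-1 hairpins, against 9.95 in the FAL-1 control. All 4 knockdown arrays were above both controls, as for 9.02% of all genes, although BMI1 hairpin 2 cleared the higher control by only 0.0086. The mean change was 0.30 ± 0.08 (SD, n = 2 hairpins) with FAL-1 knockdown, with a limma interval of -0.23 to 0.83 (adjusted p = 0.999), and 0.18 ± 0.25 with BMI1 knockdown, with an interval of -0.34 to 0.71 (limma adjusted p = 0.9998). A second, much dimmer PHC3 probe set read 5.31 and 5.16 with the BMI1 hairpins, against 5.35 in the BMI1 control, and 5.57 and 5.39 with the FAL-1 hairpins, against 5.32 in the FAL-1 control. The dim probe set was below its control with both BMI1 hairpins, where the bright one was above, and above its control with both FAL-1 hairpins, as the bright one was.

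With FAL-1 hairpin 2 the 3 PHC genes thus lay at 69.8% of control for PHC1, 113% for PHC2 and 128% for PHC3. With BMI1 hairpin 1, the stronger BMI1 hairpin, they lay at 127%, 94.8% and 128%.

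SCMH1, on chromosome 1, held the largest single change of any member. It stood at 9.91 with FAL-1 hairpin 1 and 8.65 with FAL-1 hairpin 2, against 9.71 in the FAL-1 control. FAL-1 hairpin 2 left SCMH1 at 48.3% of control, 2.07-fold lower, while FAL-1 hairpin 1 had 115% of control. A change of 1.5-fold or more to a lower value was seen with this hairpin for 1 of 8 members and 7.05% of all genes. The mean change with FAL-1 knockdown, -0.42 ± 0.89 (SD, n = 2 hairpins; limma adjusted p = 0.999), rests on hairpin 2, since it is 0.20 without it and -1.05 without hairpin 1, where the adjusted p of 0.276 in limma was the lowest among all alternatives for this value. With BMI1 knockdown the hairpins agreed closely on SCMH1. They read 9.57 and 9.58, against 9.89 in the BMI1 control, at 80.3% and 80.9% of control, which is a mean change of -0.31 ± 0.007 (SD, n = 2 hairpins). The limma interval was nonetheless -1.74 to 1.12 (adjusted p = 0.9998), because limma takes the spread of a gene from both hairpin pairs and the FAL-1 pair of SCMH1 differed by 1.26. The controls differed by 0.179, and the BMI1 hairpins read -0.14 and -0.13 when set against the FAL-1 control.

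The proliferation genes were at their lowest on the same array as SCMH1. Their median log2 change over 16 genes was -1.14 with FAL-1 hairpin 2 and -0.04 with FAL-1 hairpin 1, beside -0.40 and -0.67 with the BMI1 hairpins. Of the 20 cell type markers, 15 were above the FAL-1 control with FAL-1 hairpin 2, and 4 were 1.5-fold or more higher, the keratins KRT8, KRT18 and KRT19 and the haemoglobin gene HBB, while none was 1.5-fold lower. KRT19 read 8.57 with FAL-1 hairpin 2 and 6.73 with FAL-1 hairpin 1, against 6.72 in the FAL-1 control. KRT8 read 11.07 and 9.04, against 9.28. KRT18 read 9.47 and 8.45, against 8.79. HBB read 7.71 and 6.69, against 6.50. The keratins belong to epithelial cells and HBB to blood. Of the other blood markers, PTPRC read 5.05 and 5.05, against 5.06. CD3E read 6.26 and 6.13, against 6.35, and CD14 read 6.65 and 6.48, against 6.41. With FAL-1 hairpin 1 the fibroblast marker LUM was the 1 of 20 markers past 1.5-fold, and 12 of 20 were above control. With BMI1 hairpin 2, 19 of 20 were above the BMI1 control. There KRT8 and LUM were 1.5-fold or more higher, while the change of SCMH1 was -0.31. For BMI1 hairpin 1, 11 of 20 were above control and none was past 1.5-fold. Over all genes, 11.2% were past 1.5-fold in either direction with FAL-1 hairpin 2 and 5.82% with BMI1 hairpin 2. The counts above control include small rises, and the share of all genes above control with a single hairpin was not counted. The median change over all genes was 0.005 and 0.048 with FAL-1 hairpins 1 and 2. It was -0.008 and 0.022 with BMI1 hairpins 1 and 2. The part of the proliferation genes or of the markers in the SCMH1 value was not tested.

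KDM2B, on chromosome 12, was the one member whose 4 knockdown arrays all lay below both controls, as for 8.04% of all genes. It stood at 8.36 and 8.47 with the BMI1 hairpins, against 8.74 in the BMI1 control. It stood at 8.71 and 8.47 with the FAL-1 hairpins, against 8.87 in the FAL-1 control. FAL-1 hairpin 1 came nearest to a control, 0.024 below that of BMI1. The levels were 77.0% and 83.1% of control with the BMI1 hairpins and 89.9% and 76.2% with the FAL-1 hairpins, which are mean changes of -0.32 ± 0.08 and -0.27 ± 0.17 on the log2 scale (SD, n = 2 hairpins). The limma intervals ran from -0.76 to 0.12 and from -0.72 to 0.17. With the other target's control these means were -0.45 and -0.14. Averaged over both targets the change of KDM2B was -0.30, with an interval of -0.61 to 0.02, an unadjusted p of 0.058 and an adjusted p of 0.907 (limma), which ranged from 0.381 to 0.9999 over the alternatives. With 4 arrays against 2, an exact two-sided rank-sum test cannot give a p under 0.133, and no such test was run. KDM2B and SCMH1 were the 2 of 8 members for which both BMI1 hairpins moved to one side by more than the gap between the controls (28.3% of all genes), and KDM2B and PHC3 were the 2 of 8 with FAL-1 (28.2%). The array reads KDM2B with 1 probe set, annotated to accessions of more than 1 transcript, so the starts printed above cannot be told apart in these values.

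**Figure D3:**
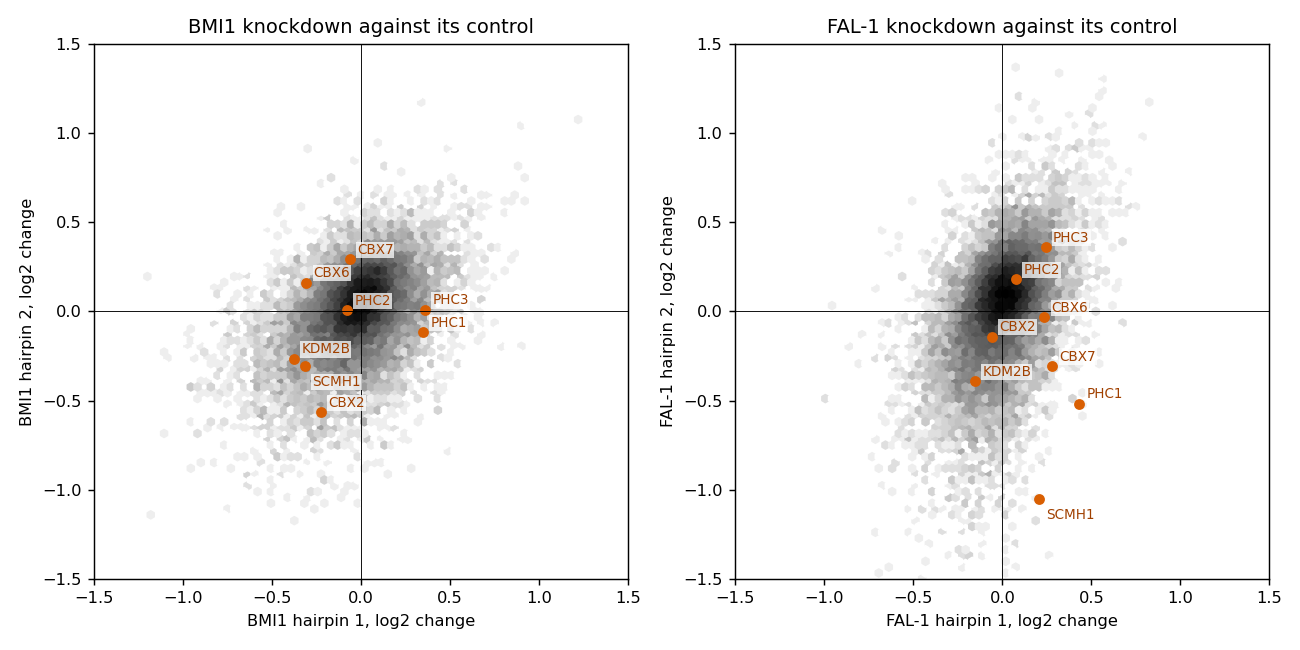
Log2 change with hairpin 1 (x axis) against hairpin 2 (y axis) of the same target, for BMI1 (left) and FAL-1 (right). Grey hexagons are all 18418 genes, darker where more genes lie and drawn within 1.5 of 0, and orange points are the 8 measured members. Both hairpins share 1 control array. PHC1 and SCMH1 lie below and to the right of the main cloud with FAL-1, with hairpin 2 values of -0.52 and -1.05.

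Counted together, the members lay on both sides of their controls. With BMI1 knockdown 1 of 8 members (PHC3) lay above the control with both hairpins, beside 32.9% of all genes, and below it for 3 of 8 (CBX2, SCMH1 and KDM2B), beside 30.7%. With FAL-1 knockdown both were above for 2 of 8 (PHC2 and PHC3), beside 37.2%, and below for 2 of 8 (CBX2 and KDM2B), beside 27.7%. No member reached 1.5-fold with both hairpins of a target, beside 1.44% of all genes for BMI1 and 1.21% for FAL-1. All 4 hairpins were below their own control for 2 of 8 members, CBX2 and KDM2B, beside 14.1% of genes, and above it for 1 of 8, PHC3, beside 17.0%. The median change over the 8 members was -0.05 with BMI1 knockdown and -0.03 with FAL-1 knockdown, beside 0.006 and 0.026 over all genes. Over so few genes these counts are a description beside the shares of all genes, and no result about the members as a set.

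The difference between the knockdowns, FAL-1 change minus BMI1 change, was tested in the same fit. It called 0% of all genes (0.804% had an unadjusted p under 0.05, none of them a member) and ranged from -0.16 for PHC1 to 0.29 for CBX2. The interval for CBX2 was -0.43 to 1.02 and that for KDM2B, whose difference was 0.05, was -0.58 to 0.68 (limma, adjusted p = 0.9999 for both). The narrowest interval, for PHC2, ran from -0.35 to 0.68. These intervals allow a difference of 1.5-fold between the knockdowns for each of the 8 members. The average of both knockdowns likewise called 0% of genes, and 5.22% had an unadjusted p under 0.05, none of them a member.

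The rest of the Polycomb machinery gave no calls either. Of 24 other PRC1 genes measured, none passed limma's test or had an unadjusted p under 0.05 in either knockdown. Their median change was -0.06 with BMI1 knockdown and -0.04 with FAL-1 knockdown. The smallest p-values with BMI1 knockdown belonged to PCGF3, a subunit of variant PRC1, at 0.36 ± 0.11, and L3MBTL2, a partner of the PCGF6 complex, at 0.31 ± 0.03 (SD, n = 2 hairpins). Against the FAL-1 control PCGF3 stood at 0.08 and L3MBTL2 at 0.11. PCGF6, which defines that complex, was the one gene among the 4 smallest p-values of both knockdowns, at -0.25 ± 0.02 with BMI1 and -0.26 ± 0.02 with FAL-1. Against the other target's control these values of PCGF6 became 0.08 and -0.59, so the first turned its sign. BCOR and BCORL1, related co-repressors that join KDM2B in variant PRC1, read -0.46 ± 0.39 for BCOR with BMI1 knockdown and 0.48 ± 0.17 for BCORL1 with FAL-1 knockdown. Against the other target's control BCOR read -0.39 and BCORL1 0.09.

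Among the 14 PRC2 and accessory genes the medians were -0.10 and -0.12 with BMI1 and FAL-1 knockdown, with none passing. The 4 smallest p-values of each knockdown went both ways. For BMI1, EPOP, a PRC2 accessory protein, read -0.59 ± 0.32, LCOR 0.37 ± 0.01, RBBP7 -0.27 ± 0.09 and AEBP2 0.33 ± 0.09. For FAL-1, RBBP4 read -0.46 ± 0.14, LCOR -0.42 ± 0.23, PHF1 0.35 ± 0.23 and SUZ12, a PRC2 core subunit, -0.49 ± 0.34. LCOR thus had opposite signs in the 2 knockdowns, also against the other target's control (0.41 and -0.46). Genes around the removal and reading of H2A ubiquitin had medians of 0.06 and -0.04 over 10 genes, with MBD5 at 0.45 ± 0.30 and 0.53 ± 0.22 (SD, n = 2 hairpins). Heterochromatin CBX genes and other relatives of the members had medians of 0.04 and -0.15 over 9 genes. In that list CBX1, which reads a different histone H3 methyl mark, was at -0.38 ± 0.05 with BMI1 knockdown, and KDM2A, the closest relative of KDM2B, was at 0.23 ± 0.27 with FAL-1 knockdown, or 0.11 against the BMI1 control. The proliferation genes, a list chosen with their position in these data known, had medians of -0.53 and -0.52 over 16 genes. Both hairpins were below the control for 16 of 16 with BMI1, beside 30.7% of all genes, and for 10 of 16 with FAL-1, beside 27.7%. No gene passed the test.

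**Figure D4:**
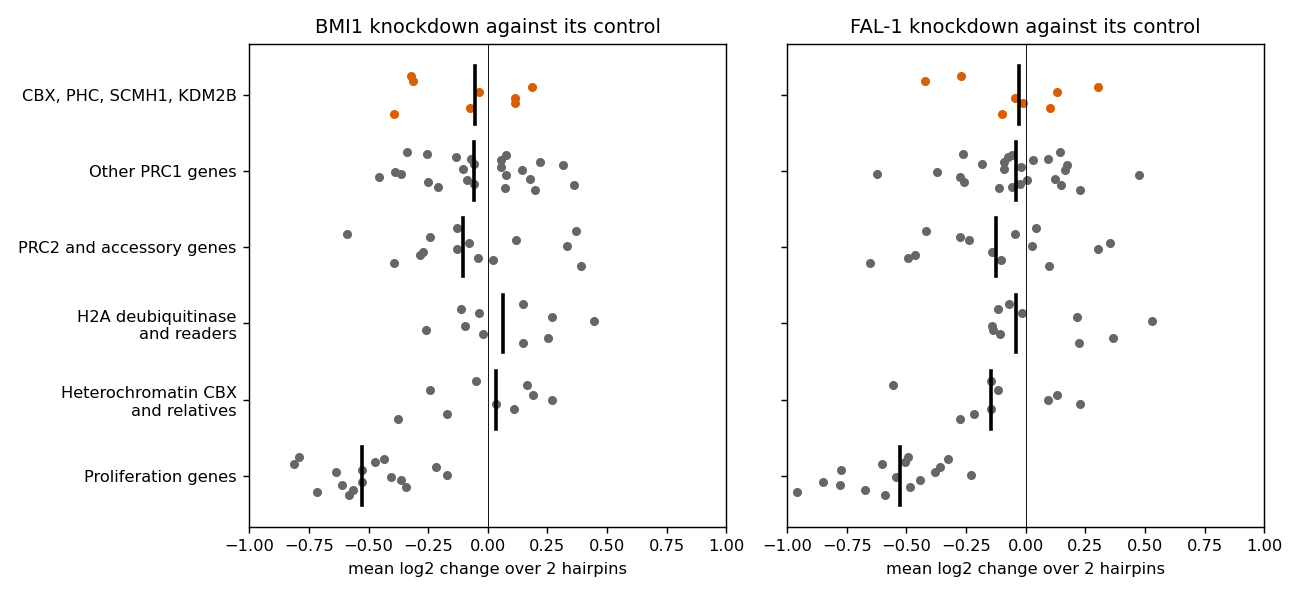
Mean log2 change over the 2 hairpins of BMI1 (left) and FAL-1 (right) against the own control (x axis) for each gene of 6 lists (rows). Points are genes, orange for the members, and black bars are list medians. The 5 rows of members, other Polycomb genes, H2A ubiquitin genes and relatives of members have medians between -0.15 and 0.06. The proliferation genes have medians of -0.53 and -0.52.

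For the 3 members that varied most over the 6 arrays, the genes with the nearest profile were sought by root mean square distance between profiles centred on their own means. SCMH1, with an SD of 0.462 over the arrays, was nearest to AHCYL1 at a distance of 0.078 and to KIF18B, a mitotic kinesin, at 0.082. AHCYL1 read 9.02 and KIF18B 8.06 with FAL-1 hairpin 2, against 10.02 and 9.12 in the FAL-1 control, so the same array sets all 3 profiles. PHC1, with an SD of 0.344, was nearest to ILRUN at 0.091 and PRKG1, a cyclic GMP-dependent kinase, at 0.096. CBX7, with an SD of 0.224, was nearest to SUMO3, a ubiquitin-like modifier, at 0.039 and to STOX2 at 0.041. No member was among the 2 nearest genes of these 3 members, and the other members were not searched. With 6 arrays among 18418 genes such near profiles are a description only.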

How the data were processed

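Per the labels' protocols, RNA extracted with Trizol was amplified, turned into cDNA and labelled with biotin for Affymetrix arrays of 1 colour. The authors deposited 33252 log2 probe set values on each of 6 arrays. The log2 scale was judged from the range, and RMA is named in the submitters' processing notes. The sources used here give neither the array's genome build nor whether all arrays were normalized together. Of the probe sets, 19460 had 1 gene symbol, 1754 several and 12038 none in the platform annotation. Each gene was represented by its brightest probe set, and the probe set for BMI1 and its readthrough was kept. The 8 measured members had 10 probe sets.

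All arrays entered 1 limma 3.58.1 fit (R 4.3.3; lmFit and eBayes, two-sided) with 4 group means and Benjamini-Hochberg adjustment over 18418 genes at 0.05. The BMI1 comparison of this fit was tested on simulated data with known changes. Named genes were all members, BMI1, up to 4 genes with the smallest p per list and comparison, and the 2 nearest profiles of the 3 most variable members. HBB, PTPRC and the other cell type markers came from a separate list. The choice of promoters to print and of the counts on the order of arrays was made after values were seen. The members and lists were chosen with earlier results of these data known. Alternatives were the other target's control, pooled controls, quantile normalization, cyclic loess, a filter on dim genes, averaged probe sets, a trended or a robust variance prior, a replicate block, leaving out each knockdown array, and 2-fold. Background correction and scan batches could not be varied from these values. The number of arrays limits the precision. Figures were drawn with matplotlib 3.10.9.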

Additional observations from a re-analysis of the deposited data

How the results depend on the processing

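No gene, and so no member, was called under the alternatives run, 13 for each knockdown comparison and 12 for their average and their difference, for which the other target's control was not tried. In these 29 to 2232 genes had an unadjusted p under 0.05 in limma, and no member reached 1.5-fold with both hairpins of a target under another control, normalization or probe set rule, or 2-fold. The lowest adjusted p of a member was 0.225, for SCMH1 in the average of both knockdowns without FAL-1 hairpin 1. The 2-fold outcome was fixed in advance, since no member reached 1.5-fold with both hairpins of a target in the main setting. Of 396 member values under the alternatives, 371 kept their direction and 25 turned. Many of the 396 could not turn, so this count is no measure of robustness. The variance priors, the replicate block and the dim gene filter leave the change itself as it was. For a single knockdown, so does leaving out an array of the other target. Averaged probe sets can move only PHC1 and PHC3. Apart from omitted arrays, 2 turned: PHC2 with BMI1 knockdown was 0.028 after quantile normalization, and CBX7 with FAL-1 knockdown was 0.011 against the BMI1 control. Both had been within 0.04 of 0. Leaving out 1 knockdown array turned the other 23, because a target then keeps 1 hairpin. For the change with BMI1 knockdown these ranges were -0.307 to 0.161 for CBX6, -0.0648 to 0.294 for CBX7, -0.118 to 0.348 for PHC1 and -0.0776 to 0.00614 for PHC2. For the change with FAL-1 knockdown these ranges were -0.034 to 0.236 for CBX6, -0.306 to 0.281 for CBX7, -0.519 to 0.431 for PHC1 and -1.05 to 0.204 for SCMH1. For the average of both knockdowns these ranges were -0.103 to 0.131 for CBX6, -0.0958 to 0.198 for CBX7 and -0.202 to 0.273 for PHC1. For FAL-1 change minus BMI1 change these ranges were -0.0603 to 0.408 for CBX6, -0.42 to 0.167 for CBX7, -0.634 to 0.317 for PHC1, -0.0565 to 0.294 for PHC3, -0.74 to 0.515 for SCMH1 and -0.0703 to 0.169 for KDM2B. With the mean of both PHC3 probe sets, BMI1 hairpins 1 and 2 read 0.16 and -0.09. Hairpin numbers 1 and 2 only name constructs of each target. Their differences correlated at 0.275 across genes between targets, and a replicate block on the number left 0 genes called in each comparison. What limits these values is 1 array per hairpin and per control.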
